A study of Mus musculus with 6 samples.

Results

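Most of the regions that the Hoxc4-au capture gave in replicate 2 were called with 1 of its probe pools and not with the other. The peaks of all 4 lists of the study were merged wherever they overlapped by at least 1 bp (mouse build mm9), which gave 9344 regions. Of these, 8781 (94.0%, exact 95% binomial interval 93.5 to 94.4) held a peak of 1 list of replicate 2 alone: 4927 with the even pool, here called even-only regions, and 3854 with the odd pool, the odd-only regions. They made up 94.3% of the 5226 even-pool peaks and 92.7% of the 4157 odd-pool peaks of replicate 2, and each consisted of a single peak. The members were chosen by the deposited peak calls themselves, so their number, strength and width are given as a description.

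ChIRP-seq maps where an RNA lies on chromatin. Chromatin is crosslinked and sheared, biotin-labelled DNA oligonucleotides complementary to the RNA pull it down, and the DNA that comes with it is sequenced. The oligonucleotides are split into alternating sets, even and odd, which share the target RNA but not their own sequences. Sites called with both sets are the usual evidence in this assay, and calls with 1 set are usually set aside; they are the subject here. Long noncoding RNAs of the Hox clusters, among the RNAs studied this way, lie among homeobox genes that set positional identity, and fat depots are known to differ in which Hox genes they express.

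All libraries came from preadipocytes, the precursor cells of fat cells, taken from epididymal white fat of C57BL/6 mice, and no group carries a mutation or a treatment in the labels. Replicate 2 comprised 1 even-pool capture, 1 odd-pool capture and 1 input library; replicate 1 had the same 3 libraries. That single input library served as the control for both captures of replicate 2, and its part in what the even and odd lists have in common was not tested. With 1 library per pool there is no spread between replicates to set a difference against, no test was made, and every interval below covers counting error only. Whether the replicates were separate animals or cultures is not stated in the labels, and the assay holds no expression values with which to check the cell type.

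After removal of duplicate positions the peak caller kept 11514289 even-pool and 10231007 odd-pool tags in replicate 2, against 12179777 tags of its input. The odd library was thus 0.889 times as deep as the even one, and the odd-only set was 0.782 times as large as the even-only set. A peak list gives no value where no peak was called, so the fragments of the other pool at these regions were not analysed here. Nor were genes or sequence, because the gene and promoter tables at hand are on another build than mm9. The regions are therefore described by position.

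Single-pool regions were narrow and shallow. The median width was 105 bp (interquartile range 95 to 130, maximum 381) for even-only and 102 bp (95 to 128, maximum 362) for odd-only regions. The caller extends each tag to 95 bp, which is also the narrowest peak it reports. This minimum width was found at 1911 even-only (38.8%, 37.4 to 40.2) and 1679 odd-only regions (43.6%, 42.0 to 45.1). The whole even and odd lists, of which the members make up most, were near this with 37.6% and 41.9%. At the summit the median region held 7 fragments with either pool, and 91.0% of even-only and 93.3% of odd-only regions held 6 to 9. A single fragment therefore moved a region by a visible step on every scale.

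The deposited fold enrichments showed these steps. The local background is the expected number of input fragments at the summit. Its lowest value in each list was the genome-wide mean, 0.585 fragments in the even list and 0.520 in the odd list. The background stood at this lower limit at 4004 even-only (81.3%) and 2572 odd-only regions (66.7%), where the whole lists had 79.8% and 65.9%. Over that background, 6 even-pool fragments gave a fold of 4.42 and a −log10 q of 1.63 (1087 regions), 7 gave 5.05 and 2.25 (1433 regions), and 8 gave 5.68 and 3.04 (859 regions). The odd pool had 749 regions with 6 fragments at a fold of 4.61, 933 with 7 at 5.26 and 530 with 8 at 5.92. The lowest rung of 5 fragments, with folds of 3.79 and 3.95, was filled by 125 even-only and 101 odd-only regions. The same fragment number thus gave a slightly higher fold in the odd list, where the background was lower.

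Few members were strong, and the rule itself favours weak ones. A summit of 10 or more fragments was reached by 314 even-only regions (6.37%), where the whole even list had 8.63%, and by 149 odd-only regions (3.87%), where the whole odd list had 6.57%. A −log10 q of 5 or more was reached by 176 even-only (3.57%, against 5.15% of the list) and 72 odd-only regions (1.87%, against 3.73%). At the other end, 136 even-only (2.76%, against 2.70% of the list) and 195 odd-only regions (5.06%, against 4.91%) had a q above 0.05. The shares with q above 0.05 were close to those of the whole lists, of which the members make up most. The shares of strong regions were lower. The 244 regions that both pools called in replicate 2 alone were wider and deeper: their even-pool peaks had a median width of 136.5 bp and their odd-pool peaks of 123 bp, and 19.8% and 18.6% of them held 20 or more fragments, against 0.183% and 0.467% of the single-pool regions. Deeper here means more fragments: the median fold of these peaks equalled that of the single-pool regions (5.05 even, 5.26 odd). Folds under 4 were found at 17.7% and 16.6% of these peaks, against 3.19% and 5.73% of single-pool regions. Folds of 8 or more were found at 8.87% and 3.24%, against 0.426% and 0.0519%. A background of 10 or more fragments was found at 11.3% and 10.5%, against 0.101% and 0.311%. Strength took part in this sorting, so nothing is drawn from the contrast.

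**Figure D1:**
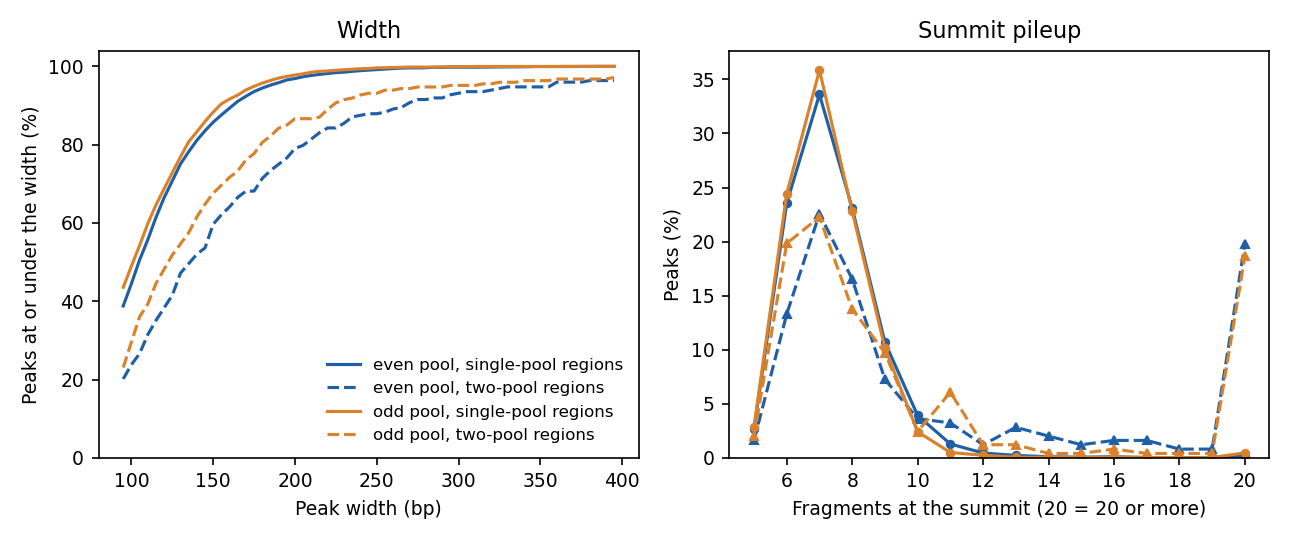
Left, share of peaks (%) at or under each width in bp; right, share of peaks (%) by number of fragments at the summit, with 20 standing for 20 or more. Solid lines are single-pool regions and dashed lines the peaks of regions called with both pools in replicate 2 alone; the single-pool curves of the even and odd pools both peak at 7 fragments and start at 38.8% and 43.6% at the minimum width of 95 bp.

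The values at the edge of the rule lay close to each other. The closest pairs of an even-only and an odd-only region touched without sharing a base: on chromosome 7 the even-pool peak at 52419499 to 52419593 (8 fragments, fold 4.63) was followed directly by the odd-pool peak at 52419594 to 52419706 (9 fragments, fold 6.58), and on chromosome 1 the odd-pool peak at 157084741 to 157084841 by the even-pool peak at 157084842 to 157084936. Another pair on chromosome 7 lay 2 bp apart. Just inside the other class, 3 regions counted as called with both pools through an overlap of 1 bp, for example on chromosome 14, where the even-pool peak at 65672549 to 65672728 and the odd-pool peak at 65672394 to 65672549 share 1 base, with 7 and 6 fragments. Of the 244 regions called with both pools, 21 overlapped by less than 20 bp, and the median overlap was 91 bp. The weakest members by p had 5 fragments: an even-only region on chromosome 12 (86510395 to 86510521, fold 3.70, −log10 p 4.33) and an odd-only region on chromosome 19 (47959246 to 47959340, fold 3.79, −log10 p 4.48).

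The strongest single-pool regions were moderate. The highest fold among even-only regions was 11.4, with 17 fragments at 32511610 to 32511771 on chromosome 9. Next came a region on chromosome 17 with 19 fragments and a fold of 10.3 (24126537 to 24126693), and on chromosome 1 one with 14 fragments and a fold of 9.46 (180797691 to 180797806). Folds of 9.34 and 8.83 belonged to regions on chromosome X (26 fragments, 166437504 to 166437615) and chromosome 14 (13 fragments, 58319037 to 58319172). The odd-only set reached less far: its highest fold was 8.55, with 12 fragments at 32602196 to 32602344 on chromosome 2. A region on chromosome 19 (4932260 to 4932426) had 12 fragments and a fold of 8.05, and 11 fragments with a fold of 7.90 were found at 28830489 to 28830644 on chromosome 13, at 53056284 to 53056482 on chromosome 7 and at 60691989 to 60692172 on chromosome 11. A fold of 8 or more was found at 21 even-only (0.426%) and 2 odd-only regions (0.0519%). The whole even and odd lists had 1.21% and 0.770%, so the rule left out many of the peaks of high fold. The widest members had 7 to 9 fragments. On chromosome 15 an even-only region spanned 381 bp (81846622 to 81847002), on chromosome 2 another spanned 373 bp (127188960 to 127189332) and on chromosome 4 a further one 346 bp (114580245 to 114580590), all with 9 fragments. The widest odd-only regions measured 362 bp on chromosome 8 (113262228 to 113262589, 8 fragments), 309 bp on chromosome 13 (3610041 to 3610349, 9 fragments) and 306 bp on chromosome 12 (81536273 to 81536578, 7 fragments).

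The tallest summits were a different kind of region. Of the 27 members with 20 or more fragments, 17 stood over a local background of 10 or more input fragments, and these 17, 5 even-only and 12 odd-only, had 29 to 72 fragments but folds of only 1.80 to 3.44. Of these, 7 lay in the first megabase with any peak on chromosomes 9 and 11, which is the end next to the centromere in the mouse. Even-only summits of 45, 43 and 43 fragments stood at 3057878 to 3057989, 3034369 to 3034619 and 3065497 to 3065616 on chromosome 11, with folds of 2.36, 2.73 and 2.17. The highest odd-only summit, 72 fragments at 2782956 to 2783050 on chromosome Y, had a fold of 1.80 over a background of 39.5. These regions were singled out after their values were seen.

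Across the chromosomes the members were spread unevenly, and the even and odd sets had like shares. No chromosome lengths of mm9 were used; densities are per Mb of span, measured from the first to the last peak that any list has on a chromosome. On average the autosomes held 2.06 even-only and 1.61 odd-only regions per Mb. Chromosome 11 was the densest with 466 even-only and 361 odd-only regions, 3.94 (exact 95% Poisson interval 3.59 to 4.31) and 3.05 (2.74 to 3.38) per Mb, which is 1.91 and 1.89 times the autosomal mean. The lowest autosome with either pool was chromosome 3, with 171 and 145 regions and 1.12 (0.960 to 1.30) and 0.952 (0.803 to 1.12) per Mb. With either pool the interval of chromosome 11 lay above those of the other 18 autosomes. The nearest were chromosome 19 in the even set (2.86, 2.44 to 3.33) and chromosome 17 in the odd set (2.25, 1.95 to 2.58). These intervals take the regions as independent, but the regions were clumped. In 1 Mb bins the variance of their counts was 4.88 (even) and 3.96 (odd) times the mean. The intervals are therefore too narrow, and no separation of chromosome 11 is drawn from them.

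Below chromosome 11 the densities lay closer together. In the even set, chromosomes 19, 17, 4, 15, 5 and 7 followed with 2.86, 2.73, 2.66, 2.61, 2.57 and 2.51 regions per Mb, and the intervals of these 6 overlap. In the odd set the next were chromosomes 17, 5, 7, 19, 8 and 4, with 2.25, 2.21, 2.12, 2.12, 1.95 and 1.89. At the sparse end, chromosomes 3, 13, 14, 18 and 1 had 1.12 to 1.35 even-only regions per Mb, and chromosomes 3, 13, 1, 12 and 6 had 0.952 to 1.13 odd-only regions. The share of a set that lay on a chromosome had overlapping intervals between the pools on all 19 autosomes, for example 9.46% of even-only and 9.37% of odd-only regions on chromosome 11. The number of odd-only per even-only region ranged from 0.656 on chromosome 15 (170 and 259) to 0.939 on chromosome 13 (123 and 131), around 0.782 over all chromosomes.

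**Figure D2:**
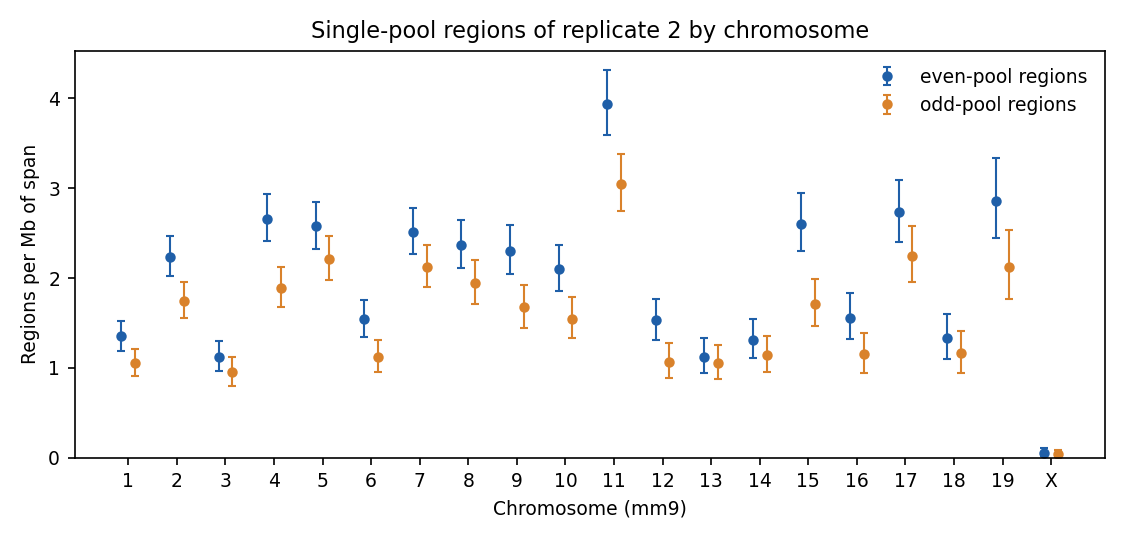
Single-pool regions per Mb of span (vertical axis) on each autosome and chromosome X, for the even and odd pools of replicate 2; bars are exact 95% Poisson intervals. Chromosome 11 stands highest with 3.94 and 3.05 regions per Mb, and chromosome X lies near 0 with 0.0530 and 0.0378.

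Chromosome X held few called regions. Its span of 132 Mb starts at the first peak of any list, at 34342317, so the sequence before that peak is not counted. Over this span the chromosome held 7 even-only and 5 odd-only regions, 0.0530 (0.0213 to 0.109) and 0.0378 (0.0123 to 0.0883) per Mb. These densities are 0.0257 and 0.0235 times the autosomal mean. Epididymal fat is a male tissue, and the part of the single chromosome X of males in these densities was not tested. Even these few regions were not scattered. Of the 12, 6 lay within 24.4 kb at the far end of the listed span (166419717 to 166444114), 4 even-only and 2 odd-only, and all 9 regions that both pools called on chromosome X in replicate 2 alone lay in the same stretch. The even-only members there had 15, 13, 26 and 11 fragments and folds of 4.13, 2.93, 9.34 and 7.57, and the odd-only members 19 and 14 fragments with folds of 5.68 and 5.78. Outside this stretch the chromosome held 6 members. Another 3 lay on chromosome Y. The distal stretch was singled out after its values were seen.

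The unevenness was stronger at the scale of megabases. The autosomes were cut into 2406 bins of 1 Mb, from the first to the last bin with a peak of any list, and each region was counted in the bin of its midpoint. An average bin held 2.04 ± 3.16 even-only and 1.60 ± 2.52 odd-only regions (SD over bins), and the median was 1 with either pool. The variance of the counts was 4.88 times their mean in the even set and 3.96 times in the odd set. Many bins were empty: 958 (39.8%) held no even-only region, 1084 (45.1%) no odd-only region and 664 (27.6%, 25.8 to 29.4) neither. At the other end, 101 bins with 10 or more even-only regions held 27.0% of that set, and 52 bins with 10 or more odd-only regions held 16.7% of that set. The 241 most filled bins, ranked by the count itself, held 47.9% (46.5 to 49.3) of the even-only and 49.0% (47.4 to 50.6) of the odd-only regions.

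**Figure D3:**
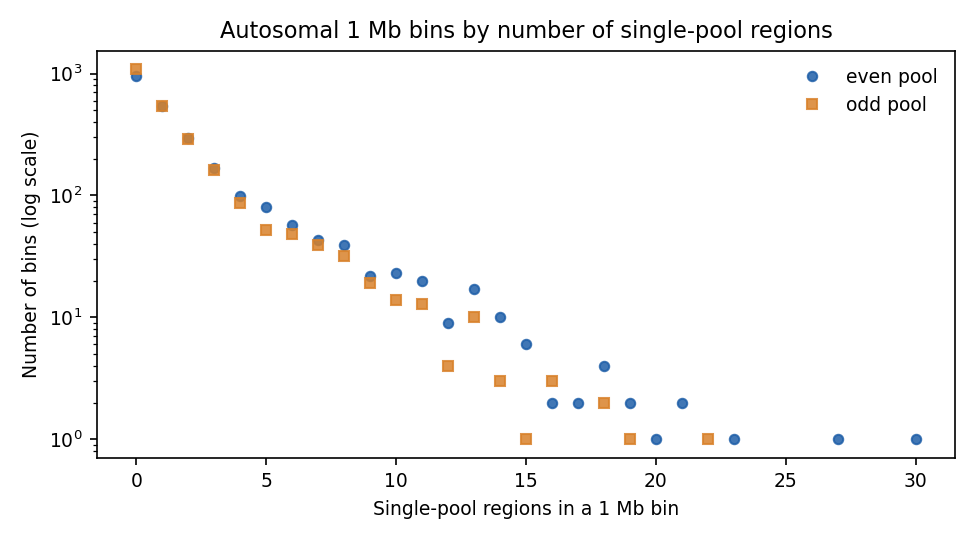
Number of autosomal 1 Mb bins (log scale) by the number of single-pool regions a bin holds, for the even pool (circles) and the odd pool (squares). The series start at 958 and 1084 empty bins and tail off to single bins of 30 even-only and 22 odd-only regions.

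The densest megabases were a neighbouring pair on chromosome 10. The bin from 79000001 to 80000000 held 30 even-only and 19 odd-only regions, and the next, from 80000001 to 81000000, held 27 and 22, so both reached 49. Together these 98 regions were 21.7% of the 452 members on chromosome 10, which as a whole held 260 even-only and 192 odd-only regions. The regions inside were neither tall nor packed at 1 site. In the first bin they had 6 to 11 fragments (median 7) and were 95 to 235 bp wide, filled 39 of its windows of 10 kb, and were 14.5 kb apart in the median. In the second they had 5 to 10 fragments, filled 37 windows and were 12.4 kb apart. No region of replicate 1 fell in either bin, and both pools called 2 and 4 regions there.

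Other dense bins came in the same form. On chromosome 8 the neighbours from 123000001 and from 124000001 held 20 and 23 even-only and 15 and 13 odd-only regions. Chromosome 11 had a bin of 21 and 14 from 69000001 to 70000000 and a bin of 14 and 18 from 117000001 to 118000000. On chromosome 4 the bin from 140000001 held 19 and 16. On chromosome 17 the bin from 56000001 held 21 and 11, and the bin from 27000001 held 14 and 16. These are the 9 bins with 30 members or more. A further 3 held 28 each, of which the one from 151000001 to 152000000 on chromosome 4 had 14 and 14. In all of the 10 bins named, the median summit held 7 or 8 fragments and folds stayed between 3.73 and 7.57. Chromosome 11 also had the largest number of bins with 10 or more members (32 of 119) and the smallest share of empty bins (14.3%).

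The emptiest stretches were long. The longest run of autosomal bins without a member covered 10 bins on chromosome 14 (89000001 to 99000000), and the gap between the members on either side measured 11.2 Mb (88264784 to 99498646). Runs of 9 bins lay on chromosome 6 (61000001 to 70000000) and chromosome 12 (61000001 to 70000000), with gaps of 9.84 and 9.82 Mb. They were not wholly without calls: replicate 1 had 1 region in the run of chromosome 14 and 1 in that of chromosome 6, and both pools of replicate 2 called 1 in that of chromosome 12. Of 368 runs, 15 covered 5 or more bins. By chromosome, the share of empty bins ran from 14.3% on chromosome 11 to 35.9% on chromosome 14. Unassembled or repetitive sequence, where reads cannot be placed, was not analysed here.

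Counted side by side in the same bins, the odd-only regions were more numerous where the even-only regions were. In the 958 bins with no even-only region, the mean number of odd-only regions was 0.446 ± 0.817 (SD over bins) and 664 of the bins (69.3%) had none. With 1 or 2 even-only regions (838 bins) the odd mean was 1.07 ± 1.33, with 3 to 5 (348 bins) 2.43 ± 2.07, with 6 to 10 (184 bins) 5.34 ± 3.12 and with over 10 (78 bins) 8.94 ± 4.16. None of these 78 bins lacked an odd-only region; the fewest was 2. Read from the other side, bins without an odd-only region had 0.597 ± 0.977 even-only regions and the 38 bins with over 10 odd-only regions had 13.0 ± 5.74. Both pools were represented in 1028 bins, the even pool alone in 420 with at most 8 regions, and the odd pool alone in 294 with at most 7. The lists share their input library, so these values stand as a description without a test.

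**Figure D4:**
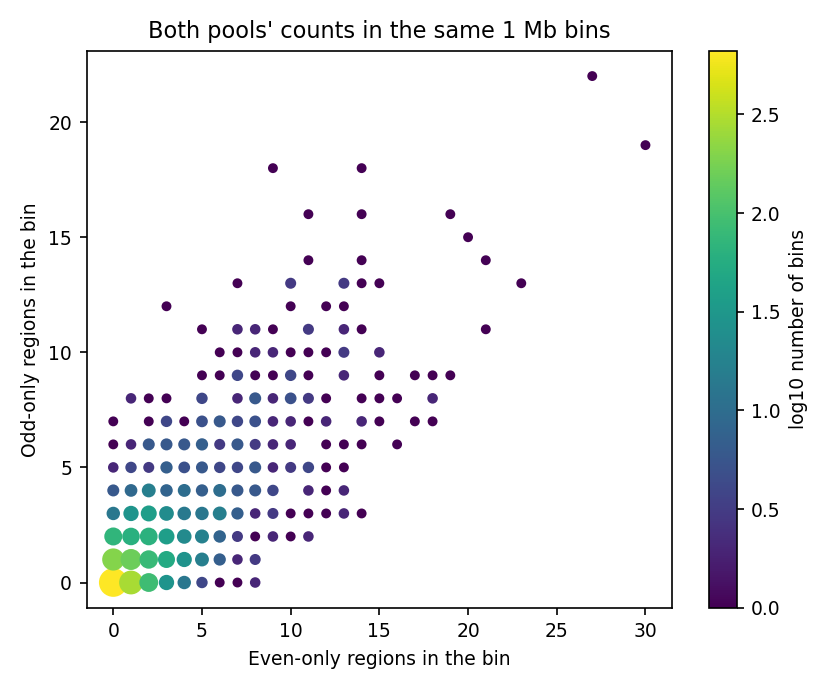
Even-only regions (horizontal axis) and odd-only regions (vertical axis) in the same autosomal 1 Mb bin; each point is a pair of counts, with size and colour giving how many bins have it (colour on a log10 scale). The points run from 664 bins at 0 and 0 to the bins of chromosome 10 at 30 and 19 and at 27 and 22.

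The pools stood furthest apart in the following bins. The even pool led by 11 regions on chromosome 2 (29000001 to 30000000, 14 even-only and 3 odd-only), on chromosome 7 (26000001 to 27000000, 18 and 7) and in the first of the chromosome 10 bins (30 and 19). The odd pool led by 9 on chromosome 5 (114000001 to 115000000, 9 and 18) and on chromosome 19 (10000001 to 11000000, 3 and 12), and by 7 in 3 tied bins: on chromosome 5 (36000001 to 37000000, 1 and 8), on chromosome 7 (87000001 to 88000000, 1 and 8) and on chromosome 17 (87000001 to 88000000, 0 and 7). Both pools were present in all of these bins except the last. On chromosome 5 the bin with 18 odd-only regions was followed by one of the dense bins, so that the pair of bins from 114000001 to 116000000 held 24 even-only and 31 odd-only regions.

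Distances to the nearest region are given for both sets side by side; overlap between the pools is excluded by the rule. The median distance from an even-only region to the nearest odd-only region was 73.1 kb (95% interval of the median 68.5 to 77.9), and to the nearest even-only region 55.4 kb (50.9 to 59.8). From an odd-only region, the nearest even-only region was 53.7 kb away (49.0 to 58.9) and the nearest odd-only region 73.5 kb (67.5 to 78.0). The median distance thus went with the set that was searched: the intervals of the distances to the even set overlap, and so do those to the odd set. The even set was the larger, and the part of set size in these distances was not tested. Within 1 kb, 253 even-only regions (5.13%) had an odd-only region and 272 (5.52%) another even-only region. For odd-only regions these numbers were 244 (6.33%) for the even and 155 (4.02%) for their own set.

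Summit height and local background of the members were close in dense and sparse megabases. Both have a lower limit, the p threshold for the summit and the genome-wide mean for the background. Their likeness was therefore partly set in advance, and nothing is drawn from it. The median summit was 7 fragments in bins with 1 member, 2 to 4, 5 to 9, 10 to 19 and 20 or more, with either pool, and the median −log10 q was 2.25 (even) and 2.44 (odd) in all of them. Mean pileup lay between 7.37 and 7.49 for even-only and between 7.30 and 7.59 for odd-only regions. The local background rested at the genome-wide mean for 79.7% of even-only regions that were alone in their bin (74.5 to 84.3) and for 81.2% of those in bins of 20 or more members (78.4 to 83.7). For the odd pool these shares were 69.7% (62.8 to 75.9) and 70.5% (66.9 to 73.9), with 64.9% to 66.5% between them. These intervals overlap between sparse and dense bins. The share of the minimum width among even-only regions was 44.8% (38.9 to 50.9) for those alone in their bin. In bins of 2 to 4, 5 to 9, 10 to 19 and 20 or more members it was 42.4%, 39.7%, 36.4% and 35.6% (32.4 to 38.9). The even values were thus lower in each denser class. The intervals of the lone regions and of the densest bins lay next to each other without overlap (bounds 38.93 and 38.90). Among odd-only regions the share was 39.8% (33.0 to 46.9) for those alone in their bin, and 47.3%, 44.3%, 42.2% and 41.4% (37.6 to 45.2) in bins of 2 to 4, 5 to 9, 10 to 19 and 20 or more members. The odd values were thus lower in each denser class from 2 to 4 members on, and lowest for the 201 lone regions; the intervals of the lone regions and of the densest bins overlap.

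**Figure D5:**
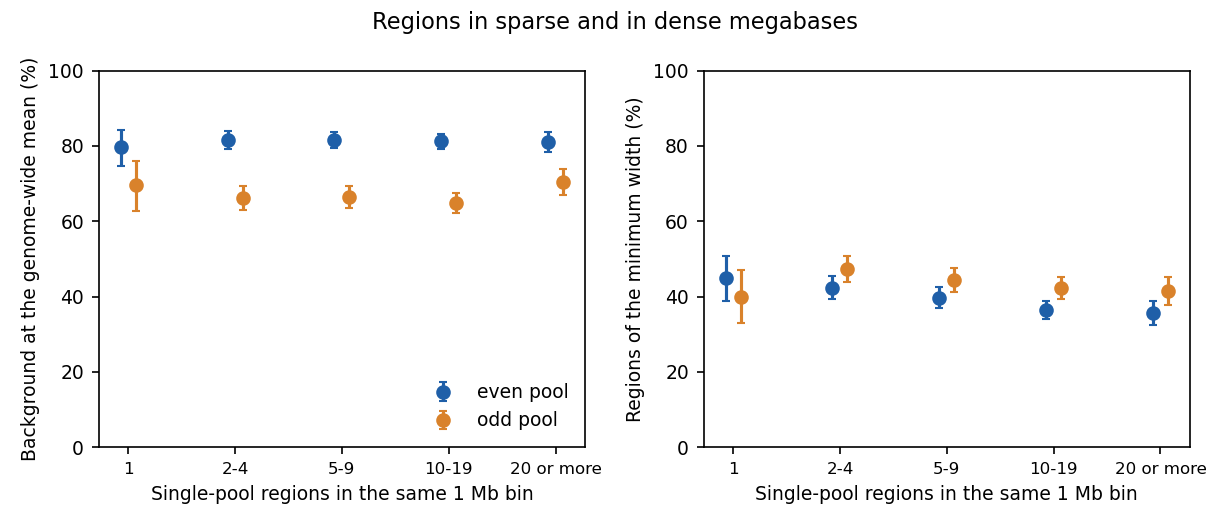
Left, share (%) of single-pool regions whose local background equals the genome-wide mean; right, share (%) with the minimum width of 95 bp, both by the number of members in the same 1 Mb bin, for the even and odd pools with exact 95% binomial intervals. The background shares stay between 79.7% and 81.7% (even) and between 64.9% and 70.5% (odd) from bins with 1 member to bins with 20 or more.

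Regions that the rule left out were also more frequent in the megabases that the members filled. The 241 bins with most members of either pool (10 or more each) are 10.0% of the bins. They held 121 of the 228 autosomal regions called with both pools in replicate 2 alone (53.1%, 46.4 to 59.7). Of these regions, 13 lay in 1 bin of chromosome 11 (3000001 to 4000000), where the next fullest bins had 4, and the interval takes them as independent. The same 241 bins held 83 of the 309 autosomal regions with a replicate 1 peak (26.9%, 22.0 to 32.2). The replicate 1 lists used other captures and another input, although some of these regions also have a replicate 2 peak. The 664 bins without a member, 27.6% of all, held 19 (8.33%) and 42 (13.6%) of them. Picked outside the rule, a bin of chromosome 15 and a bin of chromosome 4 held members of both pools, as did 1028 of the 2406 bins. Their counts were above the average of 3.64 members per bin and the median of 2. Such counts were not particular to them, as 257 bins held 10 or more members. The bin of chromosome 15 (102000001 to 103000000), with 5 regions that have a replicate 1 peak, held 7 even-only and 4 odd-only regions. The bin of chromosome 4 (43000001 to 44000000), with 3 regions called with both pools in replicate 2 alone, held 5 and 5.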

How the data were processed

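The authors called peaks with MACS 2.1.1.20160309 on single libraries, with the same replicate's input as control, per the file headers. Tags were extended to 95 bp without a fragment model, 1 tag was retained at each position, the p threshold was 5e-05, and the larger of a pair of libraries was scaled down. The submitters' processing notes list FastQC, cutadapt, Bowtie, MACS2 and mm9; how multiply mapping reads were handled is not given in the sources used here. The deposited columns used were the signal (fragment pileup at the summit), the fold enrichment as a ratio of pileup + 1 to background + 1, −log10 p-values and −log10 q-values, and the width. The headers announce no q-values, but the deposited column holds them. The p cutoff was the same for both pools although their depths differed, and its part in the number and strength of the calls was not tested. Keeping 1 tag per position lowers tall summits.

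Python 3.11.15, numpy 2.4.6, pandas 2.3.3, scipy 1.17.1 and matplotlib 3.10.9 were used. The background of a peak was recovered as (pileup + 1) / fold − 1; it was called the genome-wide mean within 0.005 fragments of the lowest value in the list. Positions are 1-based mm9. Intervals are exact (Clopper-Pearson, Poisson, or order statistics for medians) at 95% and cover counting error only, since fragments left by the duplicate filter need not be independent molecules. Merging and binning were checked on simulated lists. Members and lists were chosen with earlier results of these data known. The rule names the 5 regions of highest fold and the 3 widest of each pool, the 10 densest bins, the 3 longest empty runs, the 3 largest differences each way, and the values at the threshold. The high-background members, the distal chromosome X stretch and the bins from 102000001 on chromosome 15 and from 43000001 on chromosome 4 lie outside it. Alternatives were other overlap rules, a stricter q, equal lists, no high-background peaks, 1 replicate and other bins.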

Additional observations from a re-analysis of the deposited data

How the results depend on the processing

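Of 92 values recomputed under other settings, 77 stayed within the counting interval of the value reported, or within 1.5 times for a count, and 15 did not. With peaks of −log10 q of 2 or more, odd-only regions numbered 2563, median widths were 107 (even) and 104 bp (odd), median pileups 8 and 8, the most filled 241 bins held 49.4% and 50.7% of the regions, and 47.3% and 54.3% of bins were empty; fewer regions remain under this setting. With lists of equal length (4157 peaks each) the even pool had a median pileup of 8 and 45.0% empty bins. Under this setting even-only and odd-only regions numbered 3891 and 3886. The size ratio of 0.782 between the sets thus went with the unequal lengths of the lists. Bins of 2 Mb gave 44.0% and 43.4% in the most filled bins and 22.1% and 26.9% empty, by their construction. The share on chromosomes 11 and X stayed within its interval under all settings run. Without replicate 1 the counts were 4936 and 3866; without replicate 2 no member exists. No paired analysis was possible because each pool has 1 captured library in replicate 2 and no value comes from a fit across samples. No setting changed the sequencing depth; the median region rests on 7 fragments.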
